A study of Helianthus annuus with 12 samples.

Results

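Small RNA of sunflower (Helianthus annuus) roots was compared between seedlings held in polyethylene glycol (PEG) and seedlings held in water. The comparison takes 6 of the 12 libraries of the series, the 3 labelled PEG and root and the 3 labelled control and root, and all 15900 entries of the count table that name a small RNA. All plants were of the cultivar R5, grown in pots of soil to the 4-leaf stage, rinsed and moved into culture bottles. PEG seedlings stood for 24 h in 15% PEG 6000 in water and control seedlings stood in distilled water for the same time, so the rinsing, the loss of soil and the culture in liquid are shared by both groups. The whole seedling was treated. The labels give no transgene or mutant, and they do not say that the replicates are separate plants, so the p-values below measure only the spread between these libraries, which may be technical. The other 6 libraries, from leaves, enter only through the shared estimate of the spread and where leaf values are named. The table holds no defining markers of root cell types, so the tissue label was not checked, and in whole roots fewer cells of a type and less RNA per cell cannot be told apart.

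PEG is a polymer that holds water in solution and makes it harder for roots to take up, which is why it is used in place of dry soil. Plant microRNAs are cut by a Dicer-like enzyme from hairpin precursors, loaded into an Argonaute protein, and guide the cutting or silencing of matching messenger RNAs, many of which encode transcription factors. Plant siRNAs are cut from long double-stranded RNA, often of transposons and repeats, and many guide DNA methylation. snoRNAs stay in the nucleolus, where they guide chemical modification of ribosomal RNA, and their presence in a small RNA library reflects fragments of longer molecules.

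Root libraries held between 20829490 and 27248037 reads, of which 3199001 to 3989601 fell in named entries and 82.2% to 86.0% in 3 entries for exons, introns and intergenic sequence, which were left out of the tests. Levels below are reads scaled to 1000000 reads of the whole library (RPM). A fold change is the log2 ratio of PEG to control fitted by edgeR with TMM scaling. This scaling aims to set the bulk of the tested features to no change. MicroRNA families were scaled apart, on microRNA counts alone, and their log2 fold changes had a median of 0.31. Control root library 3 stood apart. Its reads held 10911 RPM of Rfam microRNA precursor families that are not plant families, 84 of which had reads in roots, against 194 to 264 RPM in the other 5 root libraries. Y RNA, an animal RNA family, had 3334 reads there and 64 to 87 elsewhere. At least 90% of all root counts lay in this library for 25 of 70 precursor families and 9 of 70 snoRNAs with 10 or more root counts, and for 0 of 126 known and 0 of 89 predicted microRNAs. Its TMM factor over all features was 0.292 against 0.774 to 1.15 in the other root libraries. In the fit of microRNA families it was 0.496 against 0.936 to 1.41. The part of this library in each result was measured by leaving it out, and values without it are given beside most results. Counts of microRNA families and siRNAs whose groups did not overlap are given only with all libraries.

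Under PEG, known microRNAs and siRNAs held a larger share of root reads, and predicted microRNAs, snoRNAs, rRNA, tRNA and snRNA a smaller one. Known microRNAs made up 1.12%, 1.85% and 0.550% of reads in control roots 1, 2 and 3 and 2.29%, 1.95% and 1.92% in PEG roots, or 1.17% ± 0.652 against 2.05% ± 0.207 (SD, n = 3 each). All PEG libraries lay above all control libraries, and the ratio of the means was 1.75, or 1.38 without control root 3. siRNAs made up 2.46%, 2.59% and 1.25% of control reads and 3.51%, 3.64% and 3.44% of PEG reads, again without overlap (ratio 1.68, or 1.40 without control root 3). Predicted microRNAs held 9.26%, 9.12% and 11.9% in controls and 8.27%, 7.21% and 7.22% under PEG, so every PEG library lay below every control (ratio 0.75, or 0.824 without control root 3).

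snoRNAs held 0.0302%, 0.0371% and 0.0538% of control reads and 0.0171%, 0.0191% and 0.0224% of PEG reads. The groups did not overlap, and the PEG mean was 0.484 of the control mean, or 0.581 without control root 3. Ribosomal RNA fragments held 2.27% ± 0.169 of control reads and 1.20% ± 0.0574 of PEG reads (SD, n = 3 each), also without overlap (ratio 0.527, or 0.551 without control root 3). For each of these classes the two-sided exact permutation p was 0.1, and 0.2 without control root 3. These are the lowest p-values that 3 against 3 and 3 against 2 libraries can give, so none can pass 0.05. The shares of a library sum to a fixed total, so a larger share of 1 class goes with smaller shares of others.

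**Figure D1:**
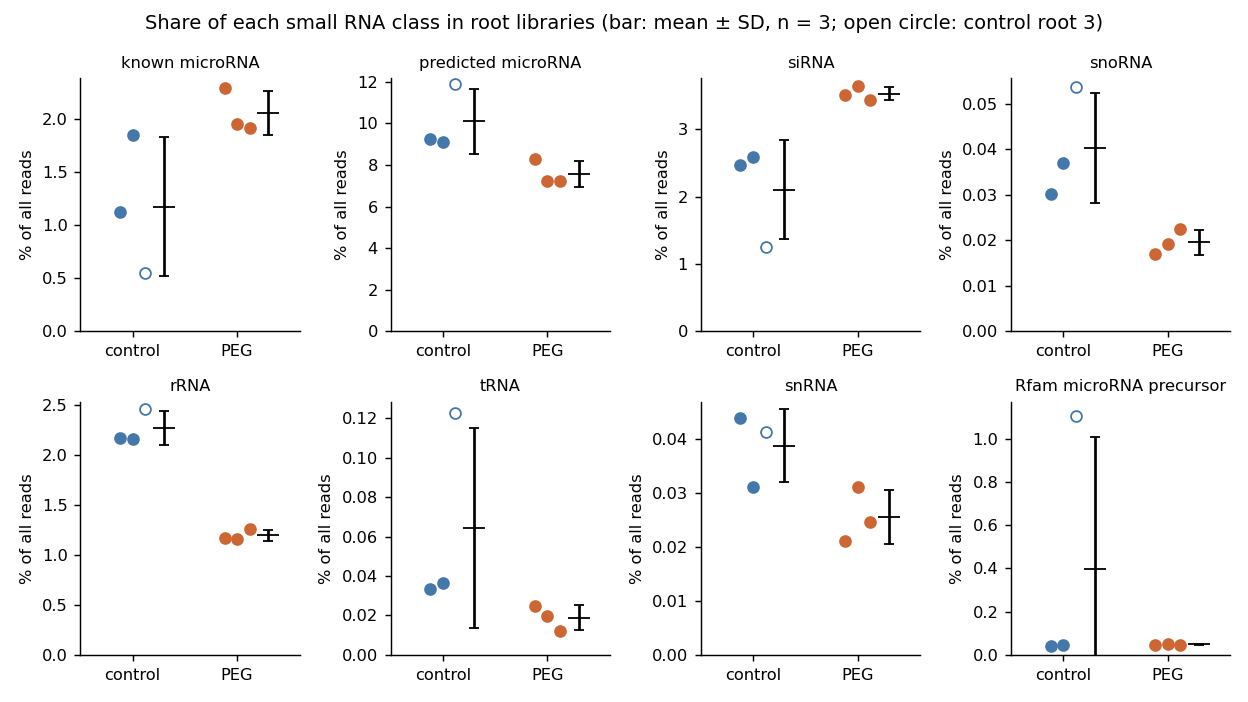
Share of all reads (%, linear axis from 0) held by 8 small RNA classes in each root library, with control in blue, PEG in orange, control root 3 as an open circle, and black bars for the mean ± SD of 3 libraries. Known microRNAs and siRNAs lie higher in every PEG library, predicted microRNAs, snoRNAs, rRNA and tRNA lie lower, and precursor families reach 1.10% in control root 3 alone.

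Feature by feature, 230 of 10604 tested features (2.17%) passed an adjusted p of 0.05 in edgeR, 223 of them higher under PEG (2.1%) and 7 lower (0.066%). The higher ones were all siRNAs, and the lower ones were 3 siRNAs, 3 snoRNAs and 1 ribosomal RNA family. Leaving out control root 3 gave 222 of 10590 (2.1%), with 218 higher (2.06%) and 4 lower (0.0378%). DESeq2 called 335 features (3.16%), 259 higher (2.44%) and 76 lower (0.717%), and 313 (2.96%) without that library. On the TMM scale 5116 of the 10604 features had a log2 fold change above 0 and 1668 below 0. The rest, nearly all of them siRNAs without root reads, were at 0. They passed the filter through leaf libraries, lower each share over all features and hold the median at 0.00. Scaling by all reads in place of TMM moved the median log2 fold change of all features from 0.00 to 0.45, or to 0.06 without control root 3. Single features and classes shifted by more, and both scales are given where a result turns on them.

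No known microRNA family passed the test in roots, and most of the abundant families had higher levels in PEG libraries on the scale of all reads. Known names in the table come from many plant species, and closely alike sequences can share reads, so counts were summed per family. Of 124 families, 34 known and 90 predicted microRNAs, 0 passed an adjusted p of 0.05 in edgeR (0%), with and without control root 3, and 0 in limma voom. At an unadjusted p under 0.05 there were 19 (15.3%), and 8 (6.45%) without control root 3. DESeq2 called 22 families (17.7%), 4 higher (3.23%) and 18 lower (14.5%), and 0 without control root 3. Among the 34 known families the edgeR log2 fold change was above 0 in 30, and in 23 without control root 3, with a median of 0.35, or 0.19 without it. Over all 124 families the medians were 0.31 and 0.16. These signs turn on the scaling, since with RLE size factors or with DESeq2 the median of all 124 families was -0.20. In RPM, 6 known families lay higher in all PEG libraries than in all controls and 1 lower, where 21.8% and 8.06% of all 124 families did so.

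Of the families that target transcription factors, 12 were tested and 0 passed. On the TMM scale 11 had a log2 fold change above 0, with a median of 0.31 (0.23 without control root 3). With DESeq2 only miR157 (0.415) and miR858 (0.612) of this list were above 0. miR166, which targets HD-ZIP class III factors of meristem and vascular patterning, was the most abundant known family, with 3798, 7573 and 2182 RPM in control roots 1, 2 and 3 and 8786, 7323 and 7241 RPM in PEG roots. Control root 2 lay within the PEG range, so the groups overlapped, and the log2 fold change was 0.49 (SE 0.37), or 0.33 without control root 3. miR858, which targets MYB factors of phenylpropanoid synthesis, had 1301, 959 and 452 RPM in controls and 3246, 2170 and 2143 RPM under PEG. Its groups did not overlap, and its log2 fold change was 1.12 (SE 0.59, adjusted p = 0.327 in edgeR), or 0.96 without control root 3.

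miR396, which targets growth-regulating factors, had 1688, 4313 and 807 RPM in controls and 2956, 3149 and 2887 RPM under PEG. The highest and the lowest value both belonged to controls, and the log2 fold change was 0.16, or -0.11 without control root 3. miR159, which targets GAMYB-like factors, had 702, 923 and 435 RPM in controls and 1246, 833 and 1135 RPM under PEG, with overlap (log2 fold change 0.28, or 0.25 without control root 3). miR171, which targets GRAS factors of the root meristem, had 374, 462 and 128 RPM in controls and 511, 548 and 447 RPM under PEG. Only control root 2 reached the PEG range, and the log2 fold change was 0.34, or 0.10 without control root 3.

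miR164, which targets NAC factors including ones of lateral root initiation, had 171, 171 and 105 RPM in controls and 253, 173 and 300 RPM under PEG. The groups did not overlap, but PEG root 2 lay barely above control roots 1 and 2 (log2 fold change 0.31, SE 0.39, or 0.34 without control root 3). The SPL regulators miR156 and miR157, which set the age of the shoot, both overlapped. miR156 had 163, 287 and 54.9 RPM in controls and 274, 157 and 227 RPM under PEG (log2 fold change 0.14, or -0.16 without control root 3). miR157 had 81.4, 167 and 7.62 RPM in controls and 191, 106 and 192 RPM under PEG (0.79, or 0.28 without control root 3). For both families control root 3 was the lowest library. Of the list's less abundant members, miR319, a regulator of TCP factors, had a log2 fold change of 0.07, miR172, a regulator of AP2 factors, 0.31, and miR169, a regulator of NF-Y factors, -0.48. With control root 3 left out these were -0.39, 0.28 and -0.89.

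In the list of auxin signalling, 0 of 4 families passed and all 4 had a log2 fold change above 0 (median 0.29, or 0.22 without control root 3, where 3 of 4 did). miR167, which targets auxin response factors of lateral root growth, had the tightest groups, 672, 810 and 610 RPM in controls and 1330, 1348 and 1240 RPM under PEG. Every PEG library was clearly above every control, with means of 697 ± 102 and 1306 ± 57.9 RPM (SD, n = 3 each). The TMM log2 fold change was nevertheless 0.46 (SE 0.31, adjusted p = 0.435 in edgeR), against 0.91 when scaled to all reads. Leaving out control root 3 gave 0.65 (adjusted p = 0.671). miR160, which also targets auxin response factors, had 40.3 RPM in controls and 77.2 RPM under PEG as means, miR390, which starts the pathway of trans-acting siRNAs, 58.0 and 75 RPM, and miR393, which targets auxin receptors, 1.30 and 1.82 RPM. These 3 overlapped between groups, and their log2 fold changes were 0.84, 0.00 and 0.13, or 0.34, -0.18 and 0.09 without control root 3. Their control means without that library were 58.4, 73.1 and 1.55 RPM.

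miR399 stood out among the nutrition families. It targets the ubiquitin-conjugating enzyme that holds back phosphate uptake, and it had 179, 185 and 41.2 RPM in controls and 378, 308 and 441 RPM under PEG. Even the lowest PEG library lay well above the highest control, and the log2 fold change was 1.21 (SE 0.50, unadjusted p = 0.0324, adjusted p = 0.274 in edgeR), or 0.88 without control root 3 (adjusted p = 0.671). With all libraries on the TMM scale this was the highest log2 fold change among known families. Without control root 3, miR858 (0.96) and the little-read miR530 (1.68) and miR4995 (1.30) were higher. miR395, which targets sulphate transporters and ATP sulfurylase, had means of 3.89 and 4.02 RPM and overlapped (log2 fold change -0.29, or -0.46 without control root 3). Its control mean without that library was 4.88 RPM.

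Of the 3 families that target genes of the small RNA pathway itself, 0 passed. On the TMM scale all 3 had log2 fold changes above 0, with and without control root 3 (median 0.71, or 0.50). With DESeq2 miR168, miR162 and miR403 had 0.387, 0.265 and -0.125. miR168, which targets the Argonaute that carries most microRNAs, had 1056, 1339 and 326 RPM in controls and 2354, 1923 and 1723 RPM under PEG. The groups did not overlap, and the log2 fold change was 0.86 (SE 0.41, unadjusted p = 0.0563, adjusted p = 0.326 in edgeR), or 0.58 without control root 3. miR162, which targets the Dicer-like enzyme of the microRNA pathway, had means of 4.56 and 9.43 RPM, and miR403, which targets another Argonaute, 38.0 and 64.9 RPM, both with overlap. Their log2 fold changes were 0.71 and 0.43, or 0.50 and 0.32 without control root 3. Their control means without that library were 5.83 and 46.5 RPM.

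Of the copper-responsive families, miR398, which targets copper/zinc superoxide dismutase, had 567, 801 and 173 RPM in controls and 912, 945 and 702 RPM under PEG. The groups overlapped through control root 2 (log2 fold change 0.46, or 0.16 without control root 3). miR397, which targets laccases of lignin formation, had means of 64.8 and 100 RPM and a log2 fold change of 0.27, or 0.17 without control root 3. Its control mean without that library was 79.0 RPM. Neither passed. None of the families tested was on the list of regulators of NLR immune receptors.

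miR6300 was the 1 known family whose PEG libraries all lay below the controls, with 16.3, 23.0 and 42.3 RPM in controls and 11.7, 7.37 and 9.80 RPM under PEG. Control root 3 was its highest library, whereas it was the lowest for the abundant families above. Its log2 fold change was -2.12 (SE 0.75, adjusted p = 0.262 in edgeR), or -1.17 without control root 3. DESeq2 called it with an adjusted p of 0.00391, and not when control root 3 was left out (0.356). miR5538, whose PEG libraries all lay above the controls, was near the limit of detection, at 0 to 0.180 RPM in controls and 0.184 to 0.248 RPM under PEG.

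**Figure D2:**
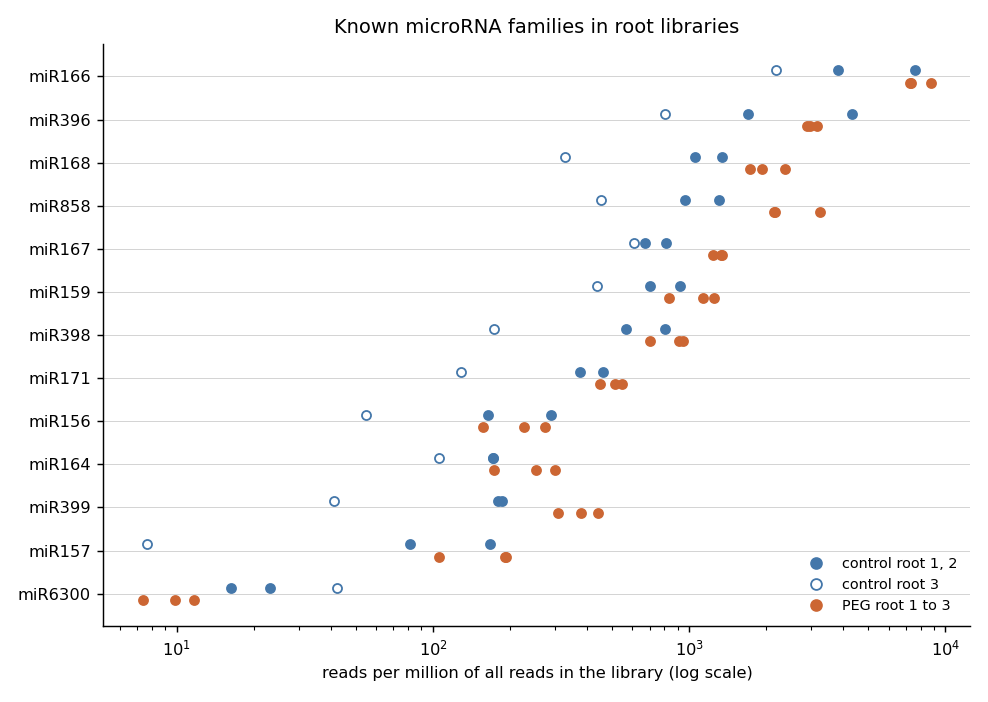
RPM (log axis) of 13 named known microRNA families in each root library, with control in blue, PEG in orange and control root 3 as an open circle. PEG points lie above all control points for miR168, miR858, miR167, miR164 and miR399 and below them for miR6300, and control root 3 is the lowest library for every family but miR6300.

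Rfam families of plant microRNA precursors, to which reads of the hairpin and of the mature sequence can both be assigned, stand beside 10 of the mature families. The mir-166 precursor family had 78.9, 120 and 57.2 RPM in controls and 155, 191 and 143 RPM under PEG, with every PEG library above every control. Its ratio of means was 1.91 (1.64 without control root 3), where the mature family had 1.72 (1.37). MIR168 precursor reads had 19.5, 31.8 and 9.72 RPM in controls and 37.5, 44.5 and 32.5 RPM under PEG, also without overlap, with a ratio of 1.88 (1.49 without control root 3) beside 2.21 (1.67) for mature miR168. The other precursor families overlapped between groups. Among them MIR167 had a ratio of 1.08 (1.26 without control root 3) where mature miR167 had 1.87 (1.76), and mir-399 had 1.42 (1.11) where mature miR399 had 2.78 (2.07). For the MIR167, MIR171 and MIR408 precursors control root 3 was the highest library, at 5.62, 2.05 and 8.87 RPM, against at most 5.38, 0.414 and 4.93 RPM in the others.

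Predicted microRNAs carried most of the microRNA reads of roots. The table gives each of them a locus and a running number in place of a family name, and nothing in the files names their targets. Of 90, 79 had reads in all 6 root libraries and 1 in none. Their loci lay on the plus strand in 76 cases and the minus strand in 14, and were 73 to 1278 bases long with a median of 186. The 8 most abundant held 80.3%, 78.2% and 86.6% of predicted microRNA counts in control roots 1, 2 and 3 and 74.0%, 69.3% and 72.7% in PEG roots. As a share of all reads these 8 held 7.43%, 7.13% and 10.3% in controls and 6.12%, 5.0% and 5.25% under PEG. The smaller share of predicted microRNAs under PEG therefore lay in these few sequences, and 21 of the 90 predicted microRNAs were higher in all PEG libraries in RPM, while 9 were lower, where 21.8% and 8.06% of all 124 families were.

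novel_mir9, which had the highest mean in control roots only with control root 3 counted, had 14246, 11750 and 34912 RPM in controls and 7763, 9682 and 7081 RPM under PEG. Every PEG library lay below every control, and control root 3 lay far above every other library. Its log2 fold change was -2.01 (SE 0.71, adjusted p = 0.262 in edgeR), and -0.87 without control root 3 (adjusted p = 0.700), so that library decided the size. novel_mir20 had 12093, 13183 and 24573 RPM in controls and 8318, 11120 and 11747 RPM under PEG, also without overlap. It showed the same dependence, with a log2 fold change of -1.30, or -0.45 without control root 3.

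The other abundant ones overlapped. novel_mir79 had 22029, 17008 and 12843 RPM in controls and 18949, 4958 and 9588 RPM under PEG (log2 fold change -1.04, or -0.98 without control root 3). novel_mir10 had 11239, 10398 and 6827 RPM in controls and 9706, 6976 and 6881 RPM under PEG (-0.68, or -0.64). novel_mir58 had 7059, 8166 and 12747 RPM in controls and 5352, 7028 and 8691 RPM under PEG (-0.99, or -0.28). In these 3 the lowest values belonged to PEG roots or to control root 3. For novel_mir86, novel_mir11 and novel_mir17 the mean RPM of the groups was nearly equal, at 3982 and 4176, 3011 and 2928, and 2900 and 2838 for control and PEG, and their log2 fold changes on the TMM scale were -0.47, -0.63 and -0.45. With control root 3 left out these were 0.13, 0.08 and -0.36, so those of novel_mir86 and novel_mir11 changed sign.

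Both of the smallest p-values among all families belonged to predicted microRNAs, novel_mir46 and novel_mir82. novel_mir46 had 528, 224 and 680 RPM in controls and 107, 159 and 187 RPM under PEG, lower in every PEG library (log2 fold change -2.29, SE 0.63, unadjusted p = 0.00316, adjusted p = 0.262 in edgeR). DESeq2 called it with an adjusted p of 0.000201. When control root 3 was left out, the log2 fold change was -1.55 and the adjusted p in DESeq2 was 0.0823, so that call was lost. novel_mir82 had 175, 205 and 46.1 RPM in controls and 318, 585 and 404 RPM under PEG, higher in every PEG library (log2 fold change 1.33, SE 0.43, adjusted p = 0.262 in edgeR, or 1.02 without control root 3). novel_mir80 had 44.7, 55.9 and 7.94 RPM in controls and 93.2, 114 and 126 RPM under PEG (1.38, or 0.99). novel_mir43 had 9.46, 5.94 and 4.19 RPM in controls and 16.8, 16.2 and 18.0 RPM under PEG (0.97, or 0.94). For both, every PEG library was above every control, and novel_mir43 had nearly the same value in all 3 PEG libraries.

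novel_mir27 had 13.4, 18.1 and 2.45 RPM in controls and 47.2, 294 and 15.9 RPM under PEG. PEG root 2 carried most of this difference, and PEG root 3 lay within the control range (log2 fold change 3.10, SE 1.07, or 2.70 without control root 3). novel_mir30 had no counts in controls and 19, 208 and 0 under PEG, and novel_mir26 had no counts in controls and 16, 0 and 10 under PEG. Because this class has no count from 1 to 9 in any library, a 0 can stand for up to 9 reads. Both novel_mir30 and novel_mir26 were missing from 1 PEG library as well. With all libraries, DESeq2 called novel_mir82, novel_mir80, novel_mir27 and novel_mir26 higher under PEG (adjusted p from 0.0314 to 0.0494). Besides novel_mir46, it called novel_mir9, novel_mir20, novel_mir79 and novel_mir58 lower (adjusted p from 0.00399 to 0.0314). None of these calls held without control root 3.

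**Figure D3:**
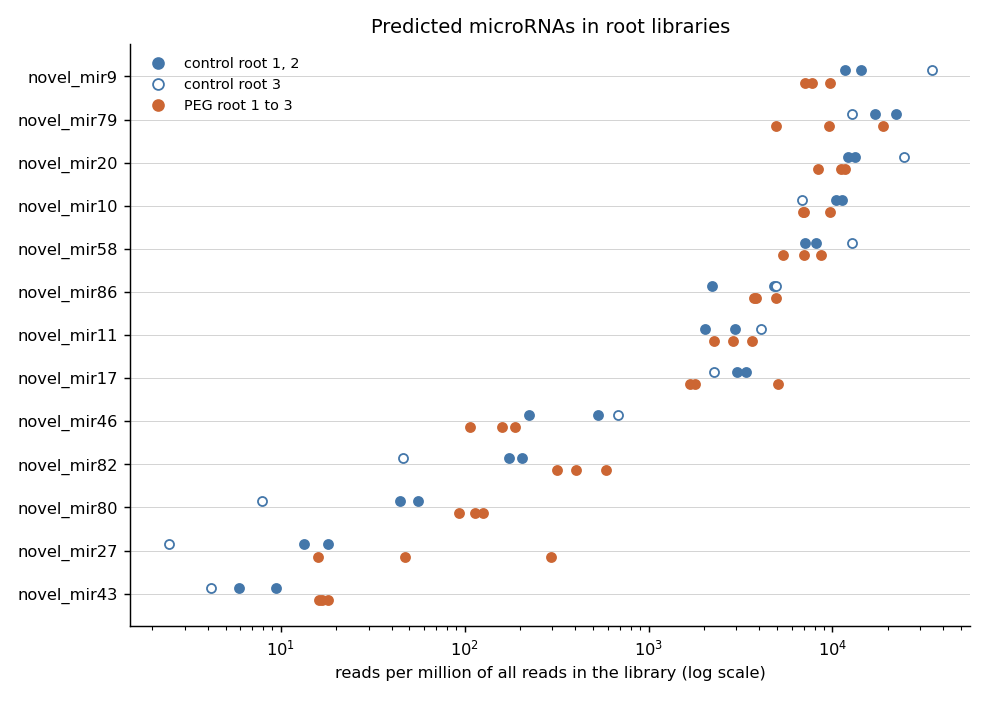
RPM (log axis) of 13 named predicted microRNAs with reads in every root library, with control in blue, PEG in orange and control root 3 as an open circle. novel_mir9, novel_mir20 and novel_mir46 lie lower in all PEG libraries, novel_mir82, novel_mir80 and novel_mir43 higher, and novel_mir9 and novel_mir20 reach their highest value in control root 3.

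Predicted loci that lie near each other did not always move in 1 direction. Within 200 kb of a neighbour on the same sequence there were 13 loci in 5 groups. The 3 loci novel_mir63, novel_mir64 and novel_mir65, on 1 strand, had log2 fold changes of 0.88, 0.19 and 0.70, and without control root 3 of 0.96, 0.14 and 0.67. The pair novel_mir53 and novel_mir54 had -1.46 and -0.65, and -1.63 and -1.14 without control root 3. The pair novel_mir67 and novel_mir68, also on 1 strand, had -0.87 and 0.47, or -0.26 and 0.77 without control root 3. The pair novel_mir38 and novel_mir39 had -1.21 and -0.15, or -0.41 and 0.07. The group of 4, novel_mir13 to novel_mir16, lay on both strands and had -0.72, -0.51, -0.97 and 0.06, or -0.37, 0.34, -0.40 and 0.65 without control root 3. None of these loci passed the test.

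More siRNA loci had reads in PEG roots than in control roots. Counts above 0 were found for 3701, 3381 and 1576 siRNAs in control roots 1, 2 and 3 and for 4766, 5289 and 5173 in PEG roots, of 15055 in the table. Every PEG library detected more than every control, and the means differed by 2190 (exact permutation p = 0.1, two-sided, the lowest it can give), or by 1535 without control root 3 (exact permutation p = 0.2, again the lowest). Depth bears on such counts, since PEG libraries were deeper and no siRNA has a count below 10. With a common floor of 0.480 RPM, the level of 10 reads in the shallowest root library, 3701, 3140 and 1479 siRNAs were detected in controls and 4116, 4565 and 4014 under PEG. The groups still did not overlap, and the difference was 1458, or 811 without control root 3.

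Detection was one-sided. Of 7008 siRNAs with reads in roots, 371 were detected in all 3 PEG libraries and no control, and 2 in all controls and no PEG library. At the common floor these were 163 and 2. With control root 3 left out they were 393 and 12, or 185 and 22 at the common floor. Control root 3 also lacked 1100 (44.4%) of the 2476 siRNAs found in all other root libraries. The 1376 siRNAs detected in all 6 root libraries had a median log2 fold change of 0.05 on the TMM scale (0.08 without control root 3) and of 0.69 on the scale of all reads (0.39 without it). In RPM, 418 of these 1376 (30.4%) were higher in every PEG library and 50 (3.63%) lower, where 13.5% and 1.14% of all tested features were. Tested features without root reads can be neither, which lowers the shares over all features.

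**Figure D4:**
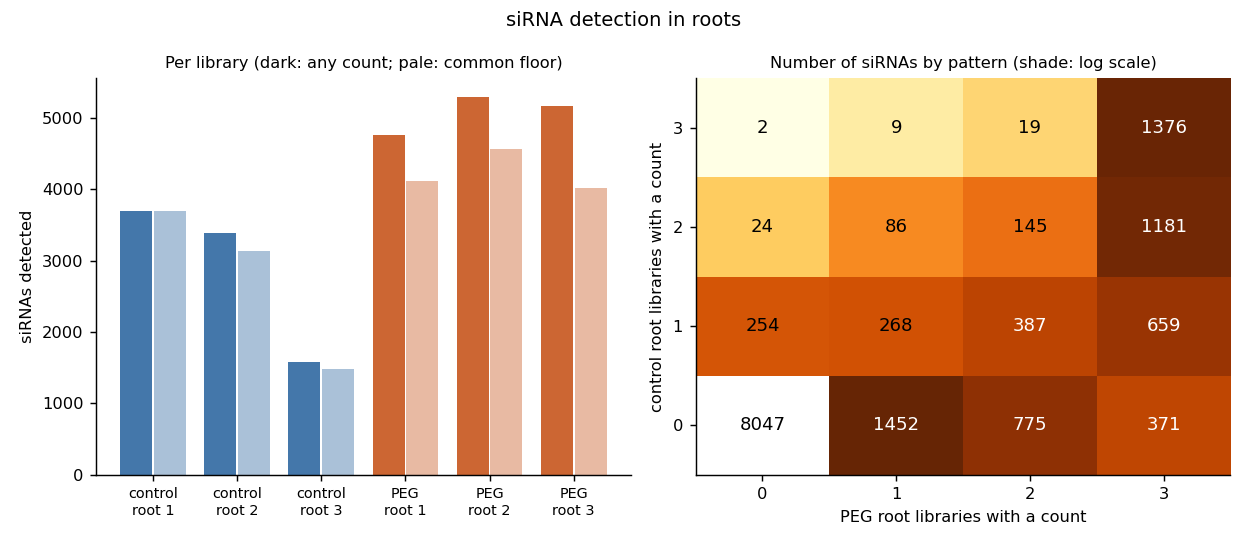
Left, number of siRNAs detected in each root library with any count (dark bars) and at the common floor of 0.480 RPM (pale bars), controls in blue and PEG in orange. Right, number of siRNAs by how many control (vertical) and PEG (horizontal) root libraries had a count, where 371 siRNAs fall in all PEG and no control libraries and 2 in the opposite corner.

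The siRNA calls rest almost wholly on loci without reads in controls. Of 226 called, 223 were higher and 3 lower, and 222 of the higher ones had 0 counts in every control root and reads in all 3 PEG roots. Their PEG counts were 10 to 142 with a median of 15, so they are little above the smallest count the table gives. Setting each control 0 to its floor of 9 reads per library bounded their fold in RPM from 0.954 to 8.03, with a median of 1.47, and 40 of the 222 were at least 2-fold higher by that bound (35 without control root 3). With TMM-scaled counts the same bounds ran from 0.516 to 4.37 with a median of 0.797, and 53 of the 222 lay above 1 and 3 above 2. With control root 3 left out on that scale, 155 lay above 1 and 6 above 2. A bound at or below 1 does not place PEG above control. When every 0 of siRNAs and predicted microRNAs was replaced by 9, 0 siRNAs passed in edgeR, and 0 features of any class. The loss took in novel_sir16402, which had reads in every root and leaf library. It therefore does not single out loci at 0 in controls. The same 222 loci all had reads in a leaf library, as did 98.6% of all tested siRNAs. In all 6 leaf libraries 219 of them had reads, and the matching share of all tested siRNAs is not given here. Leaf counts also enter the filter and the shared estimate of the spread. With control root 3 left out, 219 siRNAs were called, 218 of them among the 226.

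The highest bounds belonged to 5 loci, and each bound below is in RPM with the TMM-scaled bound after it. novel_sir10386 had no reads in controls and 142, 54 and 55 under PEG, which makes it at least 8.03-fold higher, or 4.37-fold (adjusted p = 0.0431 in edgeR, 0.0931 without control root 3). PEG root 1 carried more than the other PEG libraries together. novel_sir16281 had 10, 63 and 61 reads under PEG, at least 4.24-fold higher, or 2.28-fold (adjusted p = 0.0400, or 0.104 without control root 3, edgeR). novel_sir13737 had 41, 63 and 15 reads, at least 3.88-fold higher, or 2.08-fold, and passed with and without control root 3 (adjusted p = 0.00496 and 0.00846 in edgeR). For novel_sir14532, at least 3.32-fold higher, or 1.78-fold, the counts were 23, 62 and 17 (adjusted p = 0.0262, or 0.0692 without control root 3, edgeR). novel_sir8684 had 31, 48 and 12 reads, at least 2.96-fold higher, or 1.59-fold, and passed with and without that library (0.00790 and 0.0175). Within each locus the PEG libraries differed from each other several-fold.

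novel_sir16402 was the 1 called siRNA with reads in all 6 root libraries that rose. It had 29, 51 and 14 reads in controls and 632, 476 and 551 under PEG, or 1.44 ± 0.837 against 21.8 ± 3.12 RPM (SD, n = 3 each). The groups were far apart, with a ratio of 15.1, or 11.8 without control root 3. The log2 fold change was 3.30 (SE 0.60, adjusted p = 0.0119 in edgeR). Without control root 3 it was 3.25 with an adjusted p of 0.0657, which misses the threshold, though scaled to all reads it passed both with that library (adjusted p = 0.0105) and without (0.0310). In leaves its log2 fold change was 2.86 and did not pass, and the root and leaf changes did not pass the test of their difference (0.44).

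The siRNAs that fell were 3. novel_sir14414 had 181, 245 and 66 reads in controls and 22, 28 and 22 under PEG, all PEG libraries lower (log2 fold change -3.58, SE 0.76, adjusted p = 0.0365 in edgeR). novel_sir11275 had 25, 40 and 13 reads in controls and 20, 10 and 12 under PEG, which overlapped in RPM (-1.74, SE 0.37, adjusted p = 0.0398 in edgeR). Both missed the threshold without control root 3, with adjusted p-values of 0.0601 and 0.0758. novel_sir6584 had 21, 11 and 0 reads in controls and 0 under PEG, where a 0 in this class can stand for up to 9 reads, so no fold is given (adjusted p = 0.0479, or 0.00679 without control root 3, edgeR). A further locus, novel_sir5784, passed only without that library, with 11, 13 and 0 reads in controls and 49, 47 and 70 under PEG (adjusted p = 0.219 with it and 0.0454 without, edgeR).

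The siRNAs with the most root reads had higher RPM under PEG and did not pass. novel_sir12465 had 18119, 24197 and 7010 reads in controls and 37851, 32310 and 45926 under PEG, a ratio of mean RPM of 2.0 (1.55 without control root 3). novel_sir6423 had 20179, 21418 and 6887 reads in controls and 37697, 31301 and 42729 under PEG, a ratio of 1.95 (1.51). Neither overlapped in RPM between groups, and control root 3 held the fewest reads. For novel_sir13757, the most abundant, the ratio was 1.65 (1.30) with overlap, for novel_sir16958 1.81 (1.49) without overlap, and for novel_sir16047 2.15 (1.57) with overlap. The TMM log2 fold changes of these 5 were 0.11 to 0.59.

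snoRNA fragments were fewer in PEG roots. Of 198 snoRNA families in the table, 186 had reads in roots and 43 were abundant enough to be tested, of which 3 (0.066% of all features were called lower) fell and 0 rose. Of the 43, 42 had a log2 fold change below 0, with a median of -2.19. The median over all features, held there by siRNAs without root reads, was 0.00. An unadjusted p under 0.05 in edgeR was found for 34 of the 43 (11.8% of all features). When control root 3 was left out, 37 were tested, 2 passed, 35 were below 0 and 15 had an unadjusted p under 0.05 (9.24% of all features), with a median of -1.19. Scaled to all reads the median was -1.12, or -0.89 without control root 3, and 1 passed on this scale with and without it. In RPM, 26 of the 43 lay lower in every PEG library than in every control, where 1.14% of all features did. With control root 3 left out 28 did. Fewer controls make such a gap easier to reach, and the share over all features was not counted in that setting. Control root 3 was the highest library for 30 of the 43. The share of ribosomal RNA fragments, given above, was also lower in every PEG library, and its part in this result was not tested.

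snoR86 (RF00303) had 494, 384 and 1447 reads in control roots 1, 2 and 3 and 136, 124 and 92 in PEG roots. Every PEG library was lower, and control root 3 held more reads than the other root libraries together. Its log2 fold change was -4.16 (SE 0.80, adjusted p = 0.0194 in edgeR). Without control root 3 it was -2.44 and still passed (adjusted p = 0.00686), and scaled to all reads it was -2.92, or -2.14 without that library. snoR126 (RF01426) had 49, 65 and 50 reads in controls and 24, 23 and 15 under PEG, with no control standing apart. It fell by 2.45 on the log2 scale (SE 0.47, adjusted p = 0.0197 in edgeR), or by 1.99 without control root 3 (adjusted p = 0.0473). snoR14 (RF01280) had 358, 723 and 505 reads in controls and 250, 218 and 407 under PEG. Its groups did not overlap in RPM, and its log2 fold change was -1.95 (SE 0.43, adjusted p = 0.0479 in edgeR), or -1.44 without control root 3, where it did not pass (0.129).

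A further 5 families with small p-values did not pass, and all had lower PEG libraries. Z107/R87 (RF00360) had 219, 238 and 437 reads in controls and 122, 57 and 115 under PEG (log2 fold change -2.90, or -1.76 without control root 3). snR63 (RF01259) had 60, 57 and 110 in controls and 28, 28 and 36 under PEG (-2.59, or -1.48). snoR20a (RF01193), the second most read of those named, had 731, 1244 and 1443 in controls and 589, 492 and 767 under PEG (-2.11, or -1.23). For each of these control root 3 was the highest library and the other controls were still above the PEG libraries in RPM. SNORD14 (RF00016), a box C/D snoRNA also found in animals, had 274, 327 and 442 reads in controls and 157, 194 and 255 under PEG (-2.01, or -1.13). R11/Z151 (RF00349) had 32, 20 and 65 in controls and 10, 7 and 18 under PEG (-3.11, or -1.72).

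The most read snoRNA entry in roots, RF01506, is named in the table after a fungal snoRNA. It had 1457, 2712 and 2640 reads in controls and 1484, 1537 and 1994 under PEG, and did not pass (log2 fold change -1.62, or -0.86 without control root 3). Plant U3 (RF01847) takes part in the cutting of the ribosomal RNA precursor rather than in its modification. It had 376, 331 and 225 reads in controls and 298, 420 and 548 under PEG. Its ratio of mean RPM was 1.15, or 1 without control root 3. Its groups overlapped, and its log2 fold change was -0.55, or -0.31 without control root 3. The 1 family above 0 in edgeR was sR32 (RF01119), with 2, 2 and 1 reads in controls and 11, 10 and 14 under PEG (log2 fold change 1.86, or 1.96 without control root 3, not called), chosen for mention after its values were seen. Some snoRNA families had reads almost only in control root 3. SNORD104 (RF00289) had 244 reads there and 0 to 3 in every other root library, and SNORD30 (RF00088) had 152 there and 0 in the others.

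**Figure D5:**
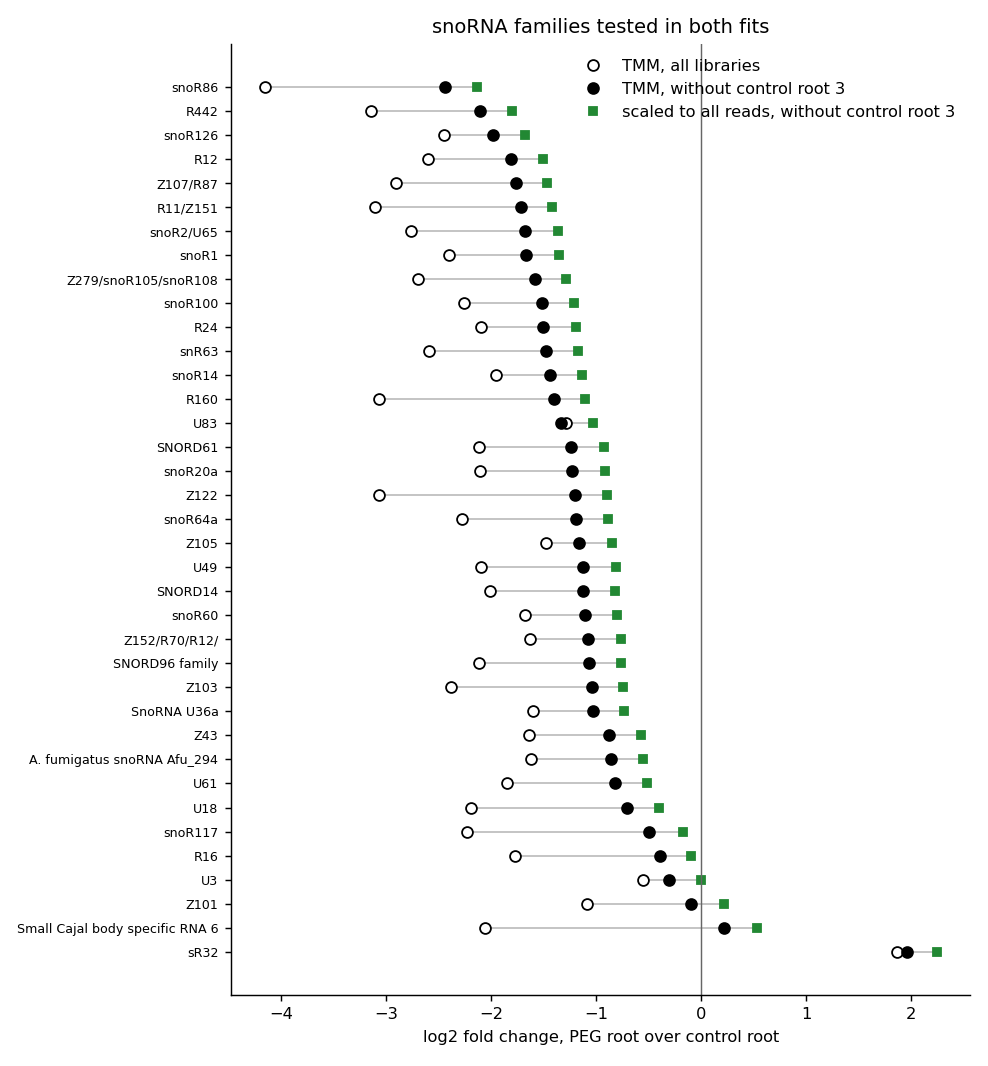
Log2 fold change of PEG root over control root for the 37 snoRNA families tested with and without control root 3, on the TMM scale with all libraries (open circles), on the TMM scale without control root 3 (filled circles) and scaled to all reads without it (squares). Most families stay below 0 on all 3, closer to 0 without control root 3, and sR32 lies above 0.

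The remaining called feature was RF02541, the Rfam family of bacterial large subunit ribosomal RNA, to which plastid and mitochondrial ribosomal RNA of plants can also be assigned. It had 155058, 108148 and 84746 reads in controls and 32454, 23687 and 23424 under PEG, lower in every PEG library, and here control root 3 was the lowest control. Its log2 fold change was -3.11 (SE 0.37, adjusted p = 0.00487 in edgeR), or -2.85 without control root 3 (adjusted p = 0.00679). Scaled to all reads it was -2.36, and -2.56 without that library. The bacterial small subunit family (RF00177) had 43959, 37840 and 35664 reads in controls and 28716, 20777 and 17792 under PEG, also without overlap in RPM, and did not pass (log2 fold change -1.86, adjusted p = 0.181 in edgeR, or -1.40 without control root 3). Eukaryotic large subunit fragments (RF02543) had means of 3308 and 1187 RPM, and 2586 RPM in controls without control root 3. All 10 rRNA families tested had log2 fold changes below 0, with a median of -1.97, or -1.39 without control root 3, and 1 of them passed.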

How the data were processed

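Total small RNA of roots and leaves was sequenced, with RNA taken by Trizol and libraries made by BGI500 protocols, per the labels' protocols. The authors deposited raw read counts per small RNA entry and the same values as TPM; the counts were used. The deposited TPM equalled the count scaled to a column total of 1000000 in 99.69% of values above 0 (within 0.0051 or 0.01% of the value) and was used only for this check. Bowtie2 2.2.9 and Bowtie are named, per the submitters' processing notes; for mapping settings and genome build, nothing is given in the sources used here. The entries for exons, introns and intergenic sequence, 82.2% to 86.0% of root counts, were left out of tests and kept in RPM totals.

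edgeR 4.0.16 (R 4.3.3, TMM, glmQLFit and glmQLFTest) was fitted over all 12 libraries on features that reached 10 counts in 3 or more libraries, with Benjamini-Hochberg adjustment at 0.05, and again without control root 3. Family counts summed known names by the digits after miR, with microRNA counts as library size. Folds against controls at 0 used a floor of 9 counts per library, in RPM and with TMM-scaled counts, the latter added after seeing the data. Errors cover counting and library spread alone, since reads carry no molecular identifiers. Class shares and detection were compared by exact permutation tests. Named features were the most abundant and those of smallest p in each class, all called siRNAs that fell or had reads in all root libraries, the 5 siRNAs with the highest fold bounds, and all other called features. DESeq2 1.42.0, limma voom 3.58.1 and other filters and scalings were alternatives. The comparison, members and lists were chosen with earlier results of these data known.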

Additional observations from a re-analysis of the deposited data

Results flagged for a closer look

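The PEG effect differed between roots and leaves (edgeR test of the difference, adjusted p under 0.05) for 5 of the named features. The share of all tested features that passed is not given here. Many named features were chosen by p-values from the same root libraries, so passing is no separate support. Among snoRNAs not named above, R12 (RF00204) also passed (-6.05, adjusted p = 0.0385, or 0.0533 without control root 3, edgeR). For snoR86 (RF00303) the root minus leaf difference in log2 fold change was -5.11 (adjusted p = 0.0444, edgeR), with 0.95 in leaves, and it was -3.37 without control root 3 (adjusted p = 0.0143). For snoR126 (RF01426) the difference was -3.50 (adjusted p = 0.0221, edgeR), or -3.01 without control root 3, and for bacterial large subunit rRNA (RF02541) it was -4.25 (adjusted p = 0.0167), or -3.96. For the siRNAs novel_sir13737 and novel_sir8684 the fitted differences were 8.41 and 8.25 (adjusted p = 0.0183 and 0.0268, edgeR), or 8.50 and 8.34 without control root 3 (adjusted p = 0.0215 and 0.0389). Control roots were at 0 for both siRNAs, so the size of these fitted values depends on the prior count and is no bound.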

How the results depend on the processing

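The 54 results named were recomputed under 1023 alternatives in all: 801 kept direction and side of the threshold, 130 lost the call, 27 gained one and 65 changed sign. The cause was not tested unless stated. The count of 230 called features was 49 with a minimum of 50 counts, 0 with zeros set to 9 (with and without control root 3), and 0 with siRNAs left out, which also leaves fewer features; leaving out 1 library gave 222 to 539, with 389 without PEG root 1, 539 without control root 1 and 431 without control root 2. The 226 called siRNAs became 47 with the minimum of 50 counts. With zeros of siRNAs and predicted microRNAs set to 9 they became 0. Leaving siRNAs out leaves none to call, so that setting is no test of them. Without 1 library they were 219 to 508 (387 without PEG root 1, 508 without control root 1, 403 without control root 2). The 3 called snoRNAs became 1 with totals of named entries, no filter, the minimum of 50 or totals of all reads (also without control root 3), 0 with the 6 root libraries only, zeros at 9 (also without control root 3) or siRNAs left out, 13 with DESeq2 (6 without control root 3), and 0 to 9 without 1 library. Called microRNA families became 22 with DESeq2 and 0 to 1 without 1 library (1 without control root 2). snoR86 kept its call without any 1 control and lost it without any 1 PEG library.

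Same-numbered PEG and control roots deviated together only weakly (correlations 0.085, 0.009 and 0.074). Control roots 1 and 3 correlated best with their own number, and control root 2 with PEG root 1. With so few libraries these values cannot decide whether same-numbered libraries share more than a number. With the replicate block 196 features passed, 0 of them snoRNAs. A fit of the 6 root libraries alone called 284 features without the block. With the block it called 3, of which 2 were siRNAs and 0 snoRNAs.

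All sign changes were of uncalled log2 fold changes. With RLE size factors, and equally with DESeq2, miR166 was -0.049, miR396 -0.33, miR167 -0.19, miR159 -0.30, miR171 -0.13, miR164 -0.28, miR156 -0.34 and novel_sir13757 -0.058. With DESeq2 without control root 3, miR166 was -0.071, miR396 -0.52, miR159 -0.11, miR398 -0.20, miR171 -0.25, miR156 -0.56, miR157 -0.12 and novel_sir13757 -0.087. With the minimum of 50 counts miR166 was -0.15, miR396 -0.38, miR167 -0.36, miR159 -0.41, miR398 -0.10, miR171 -0.23, miR164 -0.37 and miR156 -0.38. With the 6 root libraries only miR396 was -0.037, miR159 -0.033, miR164 -0.037 and miR156 -0.064. With totals of named entries novel_mir86 was 0.33, novel_mir11 0.23, novel_mir17 0.12 and U3 (RF01847) 0.36; U3 was 0.37 with siRNAs left out, 0.20 with totals of all reads, and 0.22 with zeros at 9 (0.16 without control root 3). With totals of all reads novel_mir86 was 0.069; without control root 3 as well, miR396 was -0.002, miR156 -0.041, novel_mir86 0.25, novel_mir11 0.24 and U3 0.001. With zeros at 9 novel_mir26, at 6.20 against controls at 0, was -0.26. Without 1 library, miR396 ranged from -0.11 to 0.48, miR159 from -0.074 to 0.27, miR164 from -0.084 to 0.37, miR156 from -0.28 to 0.28, novel_mir86 from -0.84 to 0.13, novel_mir11 from -1.09 to 0.079, novel_sir13757 from -0.002 to 0.36, novel_sir16958 from -0.076 to 0.36 and novel_sir16047 from -0.072 to 0.88. Chosen after seeing the data were totals of all reads for single features (not for families), the same without control root 3, DESeq2 and zeros at 9 without control root 3, and the block in root libraries only. Depth limits siRNAs and predicted microRNAs, for which counts below 10 are not given.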
